A study of Solanum lycopersicum with 12 samples.

Results

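Jasmonates are fatty acid-derived hormones that plants make after wounding, herbivory and many abiotic stresses. The 10 gene models described here cover the making and the reading of this signal in tomato (Solanum lycopersicum). They were taken from the deposited table by their identifiers, with no measured value in the rule. These members, and the further lists counted below, were nevertheless chosen with earlier results of these data known. All 10 were found among 34075 gene models, and all 10 were among the 20717 with enough counts to be tested. Gene expression had been measured by RNA sequencing in leaves, with 3 libraries in each of 4 treatments, which the labels call Control, Salinity, Heat, and Salinity + heat (the combination). Nothing else separates the groups in the labels, which give no cultivar, plant age, salt concentration, temperature or duration, nor how many plants a library stands for.

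In the chloroplast, a lipoxygenase such as LOXD oxygenates linolenic acid, allene oxide synthase (AOS1, AOS2) and allene oxide cyclase (AOC) turn the product into the precursor OPDA, and OPR3 reduces OPDA in the peroxisome on the way to jasmonic acid. The isoleucine conjugate of jasmonic acid joins the F-box protein COI1 to JAZ repressors, which are then degraded, and this frees the bHLH transcription factor MYC2 to switch on its targets. JAZ genes are themselves targets of MYC2 in this known feedback loop, and in tomato leaves the pathway is best known for the wound response against chewing insects.

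The identifiers, in the order of the pathway, were Solyc03g122340.3.1 for LOXD, Solyc04g079730.1.1 for AOS1, Solyc11g069800.1.1 for AOS2, Solyc02g085730.3.1 for AOC and Solyc07g007870.3.1 for OPR3. On the signalling side they were Solyc05g052620.4.1 for COI1, Solyc08g076930.1.1 for MYC2, Solyc07g042170.3.1 for JAZ1, Solyc12g009220.2.1 for JAZ2 and Solyc03g122190.3.1 for JAZ3. RefSeq's gene table for the assembly SLM_r2.1 lists 1 gene under 9 of the 10 names, in each case on the chromosome that the identifier gives. The exception is JAZ1, a name under which it lists no gene. Matching was by name because the table holds no identifiers of this kind. In that table LOXD and JAZ3 are close neighbours on chromosome 3, with 8 protein-coding genes between them.

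Libraries held between 56281339 and 78370751 counts. Levels are given in CPM, counts per 1000000 after scaling of the library sizes. The scaling factor of salinity replicate 2 was 0.668, whereas the other libraries had factors between 0.880 and 1.23. Even numbers made up 66.0% to 69.8% of the counts between 1 and 20 in a library, and the labels do not state whether the mates of a pair were counted singly. Summed levels of 3 gene models listed as leaf markers ranged over the libraries of a group from 39142 to 49642 CPM (control), from 43107 to 78641 (salinity), from 19488 to 22067 (heat) and from 21486 to 26079 (combination). Of these 3, 2 carried the sum and were called lower in heat (log2 fold changes -0.76 and -1.48) and in the combination (-0.66 and -1.12). The third, Solyc09g011080.3.1, went the other way, from 262 ± 85.4 CPM in control to 1766 ± 517 in heat and 1254 ± 406 in the combination (± SD, n = 3), with log2 fold changes of 2.75 and 2.26 (adjusted p 0.00017 and 0.000281). The 4 listed for fruit and pollen summed to between 0.997 and 20.7 CPM over the libraries, with the highest value in heat. The part of these shifts in the results was not tested. In bulk leaf tissue, fewer cells of a type and less RNA per cell cannot be told apart.

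Of the 10 jasmonate gene models, 6 fell in salinity alone and 0 rose, the count of increases being 0 also at an unadjusted p under 0.05 and in the DESeq2 Wald test. With heat alone LOXD rose while AOS2 and JAZ2 fell, and under both stresses AOS1, JAZ2 and JAZ3 fell. A gene model was called when its adjusted p was under 0.05 in edgeR's quasi-likelihood test over the 20717 tested. For salinity against control, 47.4% of all tested gene models were called in either direction, 23.6% being called higher and 23.8% lower. Heat against control called 39.9%, with 24.6% higher and 15.2% lower, and the combination against control called 32.5%, with 17.5% higher and 15.1% lower. In salinity 6 of 10 members were called, all lower, beside 47.4% called in either direction and 23.8% lower. In the combination 3 of 10 were called, again all lower, beside 32.5% and 15.1%. In heat 3 of 10 were called, 1 higher and 2 lower, beside 39.9% in either direction. Whether these counts depart from the background was not tested. Libraries did not overlap with control for 7 members under salinity, 5 under heat and 5 under both, where the shares over all tested gene models were 55.9%, 57.3% and 46.2%, so that complete separation by itself was common in these data. The median log2 fold change of the 10 members was -0.60 for salinity, -0.16 for heat and -0.28 for both stresses, compared with 0.04, 0.14 and 0.03 over all tested gene models. The heat background depended on the scaling. Its median was 0.05 with DESeq2 size factors and 0.44 with unscaled total counts. Of its calls, 61.8% were higher in the main fit, 52.5% with DESeq2 size factors and 80.6% with unscaled total counts.

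**Figure D1:**
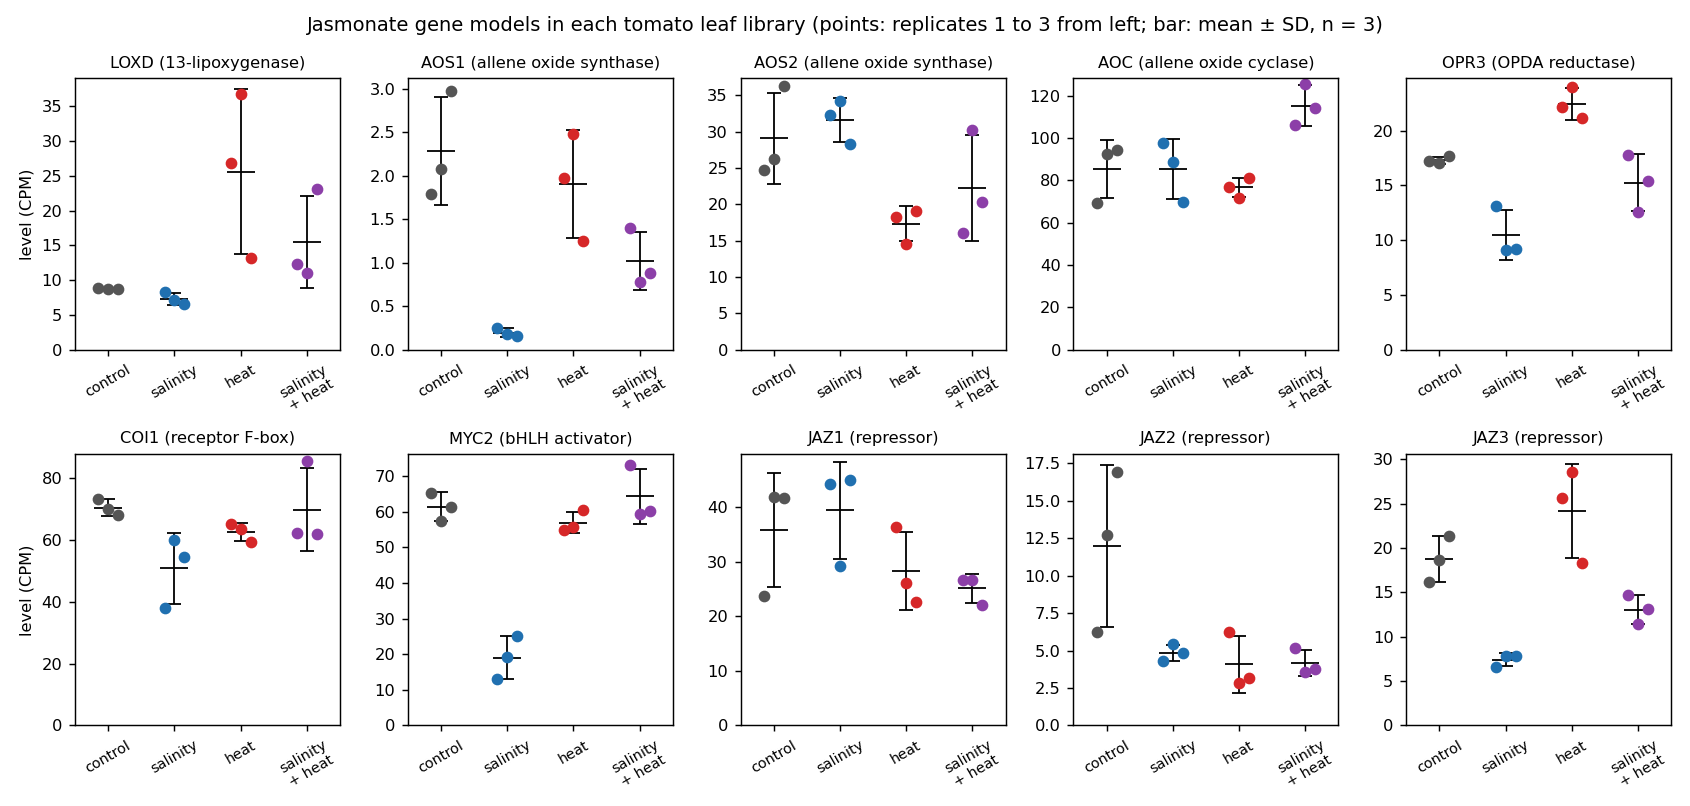
Level in CPM (linear axis from 0) of each jasmonate gene model in the 12 leaf libraries, by treatment. Points are libraries and bars give mean ± SD (n = 3). AOS1 and MYC2 are low in the 3 salinity libraries, LOXD is high in heat, and JAZ2 is low in all 3 stress groups.

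LOXD, the lipoxygenase at the start of the pathway, was the one member called higher than control in a stress. Its level was 8.83, 8.73 and 8.78 CPM in the control libraries, 8.26, 7.08 and 6.62 in salinity, 26.8, 36.8 and 13.2 with heat, and 12.3, 11.0 and 23.1 with both stresses. Each heat and each combination library lay above the controls, and both of these groups were spread widely, whereas the controls lay within counting error of each other. The rise in heat was 2.92-fold, with a log2 fold change of 1.54 (SE 0.34, adjusted p 0.00468). In the combination the log2 fold change was 0.82 (SE 0.33, adjusted p 0.0778), which was not called. It was called in the fit to the compared groups alone (adjusted p 0.0454), with unscaled total counts (1.12, 0.0321), and without combination replicate 2 (0.0491) or heat replicate 3 (0.0285), whereas it fell to 0.41 (0.367) without combination replicate 3, the highest library of its group. Salinity alone gave -0.26 (SE 0.33, adjusted p 0.54). The level in the combination was called higher than in salinity, at a log2 value of 1.08 (SE 0.33, adjusted p 0.02), although that call was lost without salinity replicate 2 (adjusted p 0.0591), salinity replicate 3 (0.0626) or combination replicate 3, where the value was 0.67 (0.112). Against heat the combination stood at -0.73 (SE 0.33, adjusted p 0.0938), which was not called. Over the fits with 1 library left out it ran from -1.14 (adjusted p 0.0215, without combination replicate 3) to -0.37 (0.412, without heat replicate 2). It was also called without heat replicate 3 (-1.04, 0.0126). The order of LOXD means was therefore heat, combination, control, salinity, with no neighbours in that order called apart.

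AOS1, one of the allene oxide synthase gene models, showed the largest log2 change of the 10 members in any comparison. It was represented by 96, 144 and 163 counts in control and by 15, 8 and 10 in salinity, or 1.80, 2.08 and 2.98 CPM against 0.255, 0.178 and 0.157 CPM. The groups were far apart, and the salinity counts, though few, exceeded a floor of 3 counts in each library. They would stand for fewer fragments, nearer that floor, if the mates of a pair were counted singly, which the labels do not state. The level was 11.6-fold lower, at a log2 fold change of -3.53 (SE 0.39, adjusted p 5.06e-05). Less than 1% of tested gene models (0.825%) had a lower log2 fold change in this comparison, a rank that describes these libraries without testing the gene. In heat AOS1 stood at 1.98, 2.48 and 1.25 CPM, overlapping control, with a log2 fold change of -0.26 (SE 0.33, adjusted p 0.541). In the combination it stood at 1.40, 0.781 and 0.888 CPM, below every control library and above every salinity library. Its log2 fold change was -1.15 against control (SE 0.34, adjusted p 0.0206) and 2.37 against salinity (SE 0.39, adjusted p 0.000566). The call against control was lost without control replicate 3 (-0.92, adjusted p 0.0781) or combination replicate 3 (-1.06, 0.0718), and with unscaled total counts (-0.83, 0.111). Against heat the combination gave -0.89 (SE 0.34, adjusted p 0.0508), just outside the threshold. It passed with halved counts (0.0481), in the DESeq2 Wald test (0.0494), and without salinity replicate 1 (0.0465), combination replicate 1 (0.0264) or heat replicate 3 (0.0244), and over the fits with 1 library left out the value ran from -1.19 to -0.65, with adjusted p up to 0.2.

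AOS2, the other allene oxide synthase gene model, had a different pattern from AOS1. It stood at 24.8, 26.2 and 36.3 CPM in control, 32.3, 34.2 and 28.4 with salinity, 18.2, 14.6 and 19.1 with heat, and 16.0, 30.3 and 20.4 with both stresses. The heat libraries lay below all controls and below all salinity libraries, while salinity overlapped control. AOS2 fell in heat by 0.75 on the log2 scale (SE 0.22, adjusted p 0.0198), a call that was lost without control replicate 3 (-0.56, adjusted p 0.0932) or heat replicate 2 (-0.64, 0.0829) and with unscaled total counts (-0.44, 0.107). Its log2 fold change was 0.12 in salinity (SE 0.22, adjusted p 0.68) and -0.39 in the combination (SE 0.22, adjusted p 0.202). Without combination replicate 2, the library with the highest AOS2 level of its group, the value for the combination was -0.75 (adjusted p 0.0182) and was called. It was near -0.20 without control replicate 3 or combination replicate 1, and -0.12 (0.7) with unscaled total counts. Against salinity the combination gave -0.51 (SE 0.22, adjusted p 0.081), called in the DESeq2 Wald test (-0.56, 0.0491) and without combination replicate 2 (-0.84, 0.00669), but -0.32 without combination replicate 1 and -0.11 (0.694) with unscaled total counts. Heat lay below salinity by a log2 value of -0.87 (SE 0.22, adjusted p 0.00415), or -0.43 (0.0875) with unscaled total counts.

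The contrast between both allene oxide synthases is clearest as the ratio of AOS2 to AOS1 counts within a library, which does not depend on the scaling of libraries. The ratio was 13.8, 12.6 and 12.2 in control, and 127, 192 and 181 in salinity, where it rests on few AOS1 counts. It was 9.22, 5.89 and 15.3 in heat and 11.4, 38.8 and 23.0 in the combination, so both groups overlapped control. Because a count depends on the length of the gene model, the change of the ratio between groups can be read, but its level does not say which enzyme's transcript was more abundant. How reads that match several places were treated is not given in the sources used here, so some counts may have been split between related gene models.

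**Figure D2:**
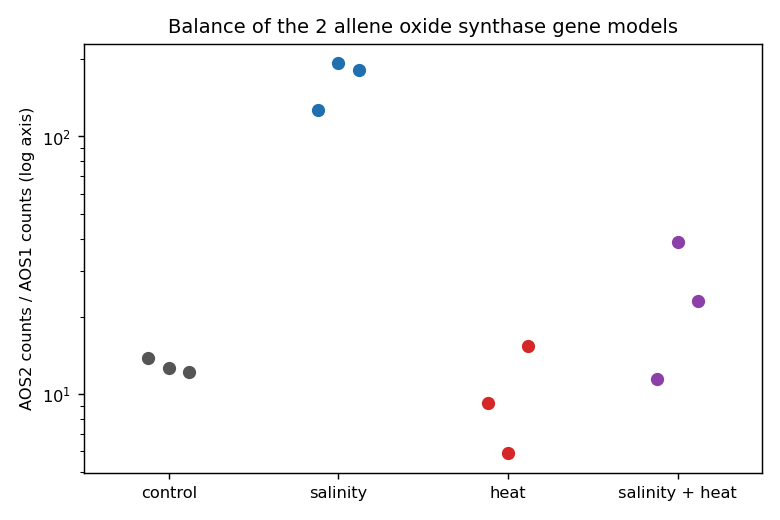
Ratio of AOS2 to AOS1 counts in each library on a log axis, by treatment, with 3 points a group. The 3 salinity libraries lie between 127 and 192, and the other 9 between 5.89 and 38.8.

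AOC, the cyclase that sets the stereochemistry of OPDA, was the enzyme with its highest levels in the combination. It measured 69.4, 92.4 and 94.4 CPM in control, 97.9, 88.5 and 69.8 with salinity, 77.0, 71.9 and 81.2 with heat, and 106, 125 and 114 with both stresses. The 3 combination libraries lay above the 9 others. AOC rose in the combination against heat by a log2 value of 0.59 (SE 0.16, adjusted p 0.0131), which missed the threshold without heat replicate 2 (0.54, 0.0561). Against control the value was 0.43 (SE 0.16, adjusted p 0.0564), called with unscaled total counts (0.72, 0.0108) and without salinity replicate 1 (0.0425) or salinity replicate 3 (0.0451), but 0.29 (0.255) without combination replicate 2. Against salinity it was 0.43 (SE 0.16, adjusted p 0.0443), a call that was kept in 6 of 20 alternative settings and was lost without any one of control replicate 2, salinity replicates 2 and 3, or any combination or heat replicate (adjusted p from 0.0539 to 0.168). It was lost too with DESeq2 size factors (0.0849), no filter beyond 1 count (0.0508) or a block for the replicate number (0.0654). The same held for the fit to the compared groups alone (0.114) and the DESeq2 Wald test (0.0751). The single stresses gave log2 fold changes of -0.00040 (SE 0.16, salinity) and -0.16 (SE 0.16, heat), with adjusted p of 0.999 and 0.458.

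OPR3, the reductase that commits OPDA to jasmonic acid, fell in salinity and stood highest in heat. The control libraries were at 17.2, 17.0 and 17.7 CPM and the salinity libraries at 13.1, 9.09 and 9.22, without overlap. Its log2 fold change in salinity was -0.72 (SE 0.17, adjusted p 0.00436). The heat libraries were at 22.1, 24.0 and 21.1 CPM, again without overlap with control, but the log2 fold change of 0.37 (SE 0.17, adjusted p 0.0936) was not called. Without salinity replicate 1, which does not enter this comparison but adds to the shared estimate of the spread, its adjusted p was 0.0476, and unscaled total counts gave 0.67 (0.0498). Without combination replicate 2, which does not enter it either, the value was 0.23 (0.255). The combination, at 17.8, 12.5 and 15.4 CPM, overlapped control, and its log2 fold change was -0.18 (SE 0.17, adjusted p 0.439). Heat and salinity set OPR3 furthest apart, with a 2.14-fold higher level in heat (log2 value 1.10, SE 0.17, adjusted p 0.000126). The combination lay below heat (-0.56, SE 0.17, adjusted p 0.0209) and above salinity (0.54, SE 0.17, adjusted p 0.0212). The first of these calls was lost without combination replicate 2 (-0.36, adjusted p 0.146) or heat replicate 2 (0.0751), and with unscaled total counts (-0.55, 0.115). The second was lost without salinity replicate 2 or 3 or combination replicate 1 or 3 (adjusted p from 0.0543 to 0.101), and in the fit to the compared groups alone (0.0876).

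COI1, the F-box protein of the receptor complex, was called in salinity against control alone, although other comparisons were called under some alternative settings. It stood at 73.3, 70.0 and 68.0 CPM in control, 38.0, 60.0 and 54.6 with salinity, 65.2, 63.5 and 59.5 with heat, and 62.3, 85.4 and 61.8 with both stresses. Salinity was below control in each library, with salinity replicate 1 the lowest. Heat also lay below control in each library, though it was not called, while the combination overlapped control. The reduction in salinity was 1.38-fold (log2 fold change -0.47, SE 0.18, adjusted p 0.0441). That call was kept in 10 of 20 alternative settings and was lost without any one of the 3 control or 3 heat libraries, salinity replicate 1 (log2 value -0.30) or 3, or combination replicate 3, with adjusted p from 0.0504 to 0.141. It was lost too with DESeq2 size factors (adjusted p 0.0531). Heat gave -0.17 (SE 0.18, adjusted p 0.465) and the combination -0.01 (SE 0.18, adjusted p 0.967). The combination was above salinity by 0.46 (SE 0.18, adjusted p 0.0516), just outside the threshold. It was called without salinity replicate 2 (0.59, adjusted p 0.03) and with unscaled total counts (0.90, 0.000374), but was 0.29 without salinity replicate 1 and 0.25 (0.258) without combination replicate 2. Heat against salinity gave 0.30 (SE 0.18), which unscaled total counts called at 0.77 (adjusted p 0.000477).

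MYC2, the transcription factor released when JAZ proteins are degraded, fell in salinity alone and was not called against control in either treatment that included heat. It measured 65.4, 57.3 and 61.4 CPM in control and 13.2, 19.1 and 25.0 CPM in salinity. The salinity libraries stood far below the others, or 3.21-fold lower than control (log2 fold change -1.68, SE 0.20, adjusted p 6.4e-05). In heat MYC2 stood at 54.8, 55.6 and 60.5 CPM and in the combination at 73.2, 59.5 and 60.3 CPM. Both groups overlapped control, with log2 fold changes of -0.11 (SE 0.19, adjusted p 0.675) and 0.07 (SE 0.19, adjusted p 0.815). The combination exceeded salinity 3.37-fold (log2 value 1.75, SE 0.20, adjusted p 6.35e-05), and heat exceeded salinity 2.99-fold (1.58, SE 0.20, adjusted p 2.67e-05). These calls of MYC2 were kept in each of the 20 alternative settings.

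The 3 JAZ repressors, whose proteins bind and silence MYC2, each had a pattern of its own. JAZ1 stood at 23.8, 41.9 and 41.8 CPM in control, 44.3, 29.2 and 44.9 with salinity, 36.4, 26.1 and 22.7 with heat, and 26.6, 26.7 and 22.1 with both stresses. Its control and salinity libraries were widely spread, and no comparison with control was called, with adjusted p of 0.659 for salinity, 0.287 for heat and 0.128 for both together. Without control replicate 1, the lowest control, the combination was called lower (-0.73, adjusted p 0.0376), beside -0.51 with all libraries, -0.38 without control replicate 2 and -0.22 (0.61) with unscaled total counts. The combination was also lower than salinity (-0.65, SE 0.25, adjusted p 0.0462), but this call was lost without control replicate 2, salinity replicate 1 or 3, heat replicate 2 or any combination replicate, with adjusted p from 0.0515 to 0.138. It was lost too with unscaled total counts (-0.27, 0.474) and with a block for the replicate number (0.0735), and was kept in 11 of 20 alternative settings. Heat against salinity gave -0.48 (SE 0.25, adjusted p 0.1) and was called with DESeq2 size factors (0.0433), in the DESeq2 Wald test (0.0391), and without salinity replicate 2 (0.0393) or heat replicate 1 (0.0347). It was -0.34 without heat replicate 3 and -0.083 (0.82) with unscaled total counts.

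JAZ2 was lower in each of the 3 stress groups. It measured 6.25, 12.7 and 16.9 CPM in control, 4.33, 5.41 and 4.82 with salinity, 6.23, 2.81 and 3.17 with heat, and 5.15, 3.56 and 3.79 with both stresses. No stress library reached the lowest control, although heat replicate 1 and control replicate 1 were nearly level. The log2 fold changes were -1.30 (SE 0.36, adjusted p 0.0101) in salinity, -1.56 (SE 0.36, adjusted p 0.00617) in heat and -1.52 (SE 0.36, adjusted p 0.00678) in the combination. These comparisons share the same 3 control libraries, so the 3 reductions are not independent of each other. All 3 calls were kept in each of the 20 alternative settings, with adjusted p up to 0.0471. The stress groups did not differ by call among themselves, with log2 values of 0.04 for the combination against heat (SE 0.35), -0.22 for the combination against salinity (SE 0.36) and -0.25 for heat against salinity (SE 0.36).

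JAZ3 separated the groups more finely. Its level was 16.2, 18.7 and 21.4 CPM in control, 6.54, 7.86 and 7.87 with salinity, 25.6, 28.6 and 18.3 with heat, and 14.7, 11.4 and 13.1 with both stresses. Salinity lay below all other libraries, the combination lay between salinity and control without overlap, and heat overlapped control alone. Salinity lowered JAZ3 2.53-fold (log2 fold change -1.34, SE 0.19, adjusted p 0.000188). Heat gave 0.36 (SE 0.18, adjusted p 0.125), a value that was called without heat replicate 3 (0.53, adjusted p 0.0312) or with unscaled total counts (0.67, 0.0255), but was 0.23 (0.407) without heat replicate 2 and 0.22 without combination replicate 2. The combination lay above salinity by 0.81 (SE 0.18, adjusted p 0.00377) and below heat by -0.89 (SE 0.18, adjusted p 0.00342). Its reduction against control, of -0.52 (SE 0.18, adjusted p 0.0436), was kept in 10 of 20 alternative settings. It was lost without control replicate 2 or 3, salinity replicate 2 or 3, combination replicate 2 or 3, or heat replicate 1 (adjusted p from 0.0504 to 0.134), and unscaled total counts gave -0.22 (0.468). It was lost too with no filter beyond 1 count (0.0521) and with a block for the replicate number (0.0699).

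Set in order of their mean levels, the members fell into several patterns. AOS1 ran from control through heat and the combination to salinity, and OPR3 and JAZ3 from heat through control and the combination to salinity. In these 3 the step from the combination down to salinity was called, as was the step from control to the combination for JAZ3. MYC2 ran from the combination through control and heat to salinity, with a call at the last step alone, and JAZ2 from control through salinity and the combination to heat, with a call at the first step alone. AOC was highest in the combination, followed by control, salinity and heat, and COI1 was highest in control, followed by the combination, heat and salinity. AOS2 ran from salinity through control and the combination to heat, and JAZ1 from salinity through control and heat to the combination. No neighbouring groups of AOC, COI1, AOS2 or JAZ1 were called apart.

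**Figure D3:**
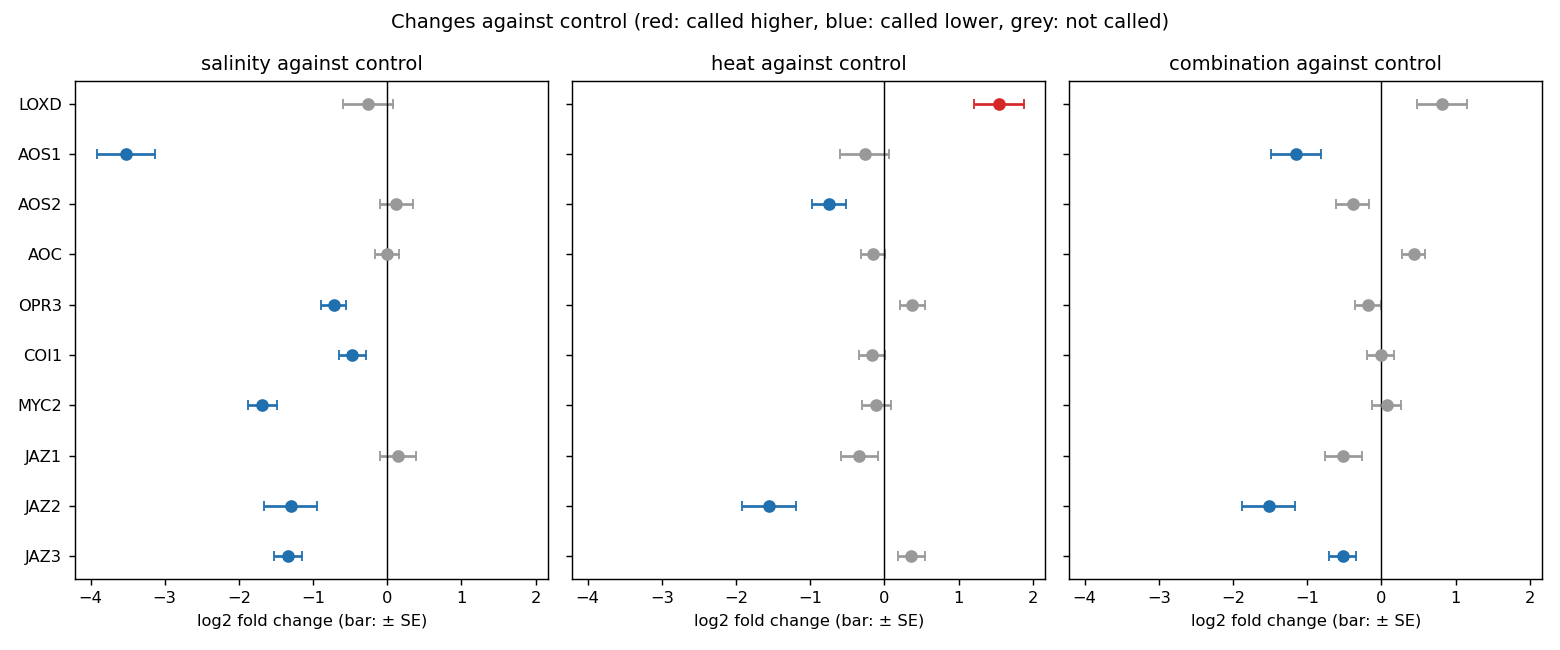
Log2 fold change ± SE of each jasmonate gene model in salinity, heat and the combination against control, from 1 model over the 12 libraries, on a shared axis. Blue points were called lower, red higher, and grey points were not called; AOS1 in salinity, at -3.53, is the most distant from 0.

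Heat added to salinity was the comparison with the most member calls among those that involve the combination. Against salinity, the combination was higher in LOXD, AOS1, AOC, OPR3, MYC2 and JAZ3, lower in JAZ1, and not called in AOS2, COI1 and JAZ2. Of all tested gene models, 44.5% were called there, 24.4% higher and 20.1% lower, whereas 7 of the 10 members were called, 6 of them higher. Of the members, 7 had no overlap between these groups, as did 51.5% of all tested gene models. The count of 7 depended on the libraries, since 3 were called without salinity replicate 3 or combination replicate 3 and 4 without combination replicate 1. The calls of AOS1, MYC2 and JAZ3 were kept in each alternative setting, where unscaled total counts moved JAZ3 from 0.81 to 1.26. The same setting moved OPR3 from 0.54 to 0.95 and AOC from 0.43 to 0.84.

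Salinity added to heat changed fewer members by call. The combination against heat was higher in AOC and lower in OPR3 and JAZ3, or 3 of 10, beside 40.3% of all tested gene models called, 17% higher and 23.4% lower. The groups did not overlap for 3 members and for 56.2% of all tested gene models. The count was 1 without heat replicate 2 and 5 without heat replicate 3. With the combination against control, the count was 1 without control replicate 3 or combination replicate 3. Heat set directly against salinity called 6 of 10, with LOXD, AOS1, OPR3, MYC2 and JAZ3 higher and AOS2 lower in heat, beside 68.4% of all tested gene models called, 37.9% higher and 30.5% lower. The groups did not overlap for 6 members and for 71.4% of all tested gene models.

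The interaction contrast subtracts the log2 effect of salinity without heat from its log2 effect with heat, and so tests whether the effect of salinity differed between plants with and without heat. It was called for AOS1 and MYC2 among the 10 members, both in the positive direction. Over all tested gene models 8.94% were called, 4.73% positive and 4.21% negative. For MYC2 the effect of salinity was -1.68 (SE 0.20) without heat and 0.17 (SE 0.19) with heat, and the interaction was 1.86 (SE 0.27, adjusted p 0.0038). For AOS1 the effect was -3.53 (SE 0.39) without heat and -0.89 (SE 0.34) with heat, and the interaction was 2.64 (SE 0.51, adjusted p 0.0117). Both calls were kept in the 19 alternative settings that can be fitted for this contrast, with adjusted p up to 0.0128 for MYC2 and 0.0318 for AOS1.

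Among the other 8 members the interaction was not called. JAZ2 had the next largest value, at 1.34 (SE 0.50, adjusted p 0.112), and was called without heat replicate 1 (1.78, adjusted p 0.0451) and in the DESeq2 Wald test (1.38, adjusted p 0.0465), though it was 1.00 (0.224) without control replicate 3. COI1 stood at 0.62 (SE 0.25, adjusted p 0.134) and was called with unscaled total counts (0.77, 0.0448). AOC stood at 0.59 (SE 0.23, adjusted p 0.123) and JAZ3 at 0.45 (SE 0.26, adjusted p 0.295). LOXD, with -0.47 (SE 0.47, adjusted p 0.568), and JAZ1, with -0.32 (SE 0.35, adjusted p 0.602), were the members with a negative estimate. With 1 library left out these ran from -0.87 (combination replicate 3) to -0.11 (heat replicate 2) for LOXD and from -0.49 (salinity replicate 2) to -0.094 (control replicate 1) for JAZ1, none of them called. The median over the 10 was 0.52, compared with -0.06 over all tested gene models. A missed threshold does not show that these members responded additively. Data were simulated for the interaction contrast with 20443 gene models, of which 200 were changed. Of changes of log2 size 1, 3.77% were called, and of changes of size 2, 58.5%. In the measured data 1852 gene models were called, which made the adjusted threshold less strict than in the simulation. The simulated shares therefore do not apply to the members.

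**Figure D4:**
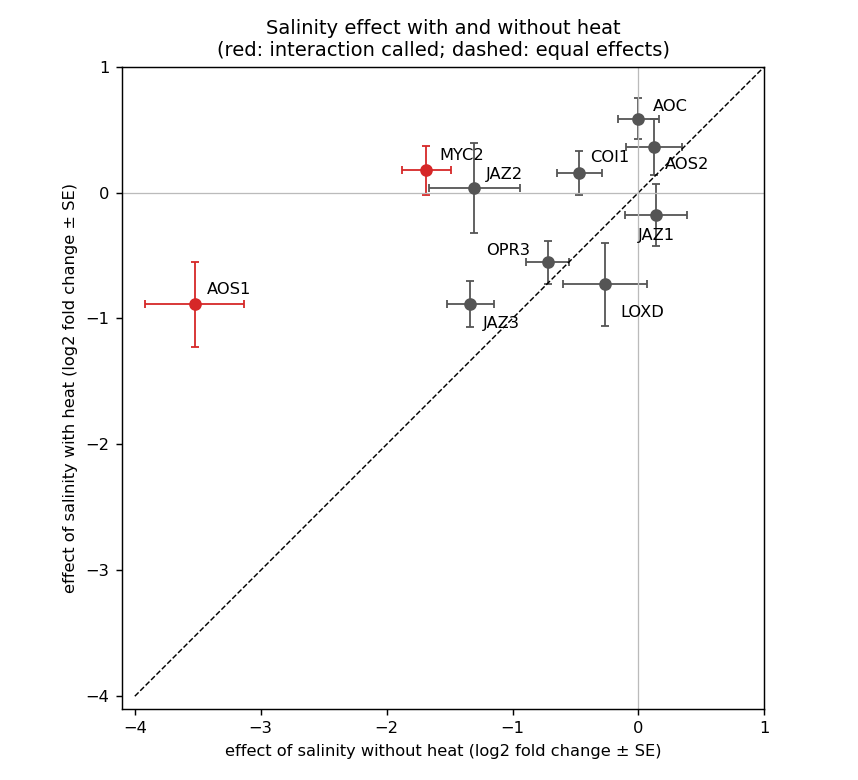
Effect of salinity without heat (salinity against control, x axis) and with heat (combination against heat, y axis) as log2 fold change ± SE for each jasmonate gene model. Points on the dashed line have equal effects; MYC2 and AOS1, in red, lie above it with a called interaction of 1.86 and 2.64.

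Further gene models of the pathway were counted in 4 lists, given only as counts because the deposited table holds no names and the lists rest on general knowledge of tomato identifiers. Beside these counts stand the shares of all tested gene models called higher and lower against control. They were 23.6% and 23.8% in salinity, 24.6% and 15.2% in heat, and 17.5% and 15.1% in the combination. For the interaction, 4.73% were called positive and 4.21% negative. Of 6 listed as coactivators, corepressors and bHLH antagonists that work with MYC2, all 6 were tested and 6 were called lower in salinity, with log2 fold changes from -1.85 to -0.69. In heat 3 of these 6 were called higher and 1 lower, in the combination 1 was called lower, and 2 had a called, positive interaction. Of 8 further listed JAZ gene models, 7 were tested, of which 1 was called lower in salinity, 1 lower in heat, and 4 lower and 1 higher in the combination. Of 7 listed enzymes of oxylipin metabolism, 6 were in the table and 5 were tested, of which 1 was called higher and 2 lower in salinity, 0 in heat and 1 higher in the combination. In heat, where this last list had 0 calls in edgeR, 1 had an unadjusted p under 0.05 and the DESeq2 Wald test called 1. The 5 calls of the JAZ list in the combination fell to 1 without control replicate 2 or combination replicate 1 or 3, to 2 without control replicate 3, and to 3 without control replicate 1, combination replicate 2 or heat replicate 1. Its single calls in salinity and heat ranged from 0 to 3 and from 1 to 4 over the alternatives. The 6 calls of the MYC2 partner list in salinity numbered between 4 and 6 over the alternatives, and its 1 call in the combination was lost without control replicate 1 or 2 or combination replicate 2 or 3. The 1 call of the oxylipin list in the combination was lost without control replicate 1.

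Of 8 gene models listed as wound-response proteins and regulators linked to jasmonate, 6 were tested. In salinity 1 was called higher, with a median log2 fold change of 0.34. In heat 3 were called higher and 2 lower, with values from -1.52 to 3.01. In the combination 2 were called higher and 1 lower, with values from -1.07 to 3.43. As background, salinity called 23.6% of all tested gene models higher and 23.8% lower. Heat called 24.6% higher and 15.2% lower, and both stresses together 17.5% and 15.1%. Whether this list departs from that background was not tested. The 5 calls in heat were 3 without heat replicate 2 or 3, and ranged from 3 to 6 over all alternatives. The 1 call in salinity became 3 without control replicate 3 and 2 without salinity replicate 1.

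To find gene models with the most similar pattern, each was centred on its own mean log2 CPM and compared over the 12 libraries by the root mean square difference. The 3 closest to MYC2 among 20716 were Solyc05g006560.1.1 (0.21), Solyc02g083110.1.1 (0.21) and Solyc01g096050.4.1 (0.21). The third, which is also 1 of the 6 on the list of MYC2 partners, had a mean level of 11.4 ± 0.0998 CPM in control, 4.40 ± 0.820 with salt, 12.7 ± 0.397 with heat and 11.2 ± 1.88 with both (± SD, n = 3). The member most like MYC2 was JAZ3, at a difference of 0.48 and rank 1007, and the least like it was AOS2, at 1.06 and rank 12906. For LOXD the closest were Solyc02g088940.3.1 (0.26), Solyc03g112060.3.1 (0.27) and Solyc09g005600.3.1 (0.28), and the closest member was OPR3, at 0.55 and rank 2154. The member patterns were further from MYC2 and LOXD than those of many gene models outside the pathway list.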

How the data were processed

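The authors deposited whole-number counts per gene model for 12 leaf libraries, without normalization and with 1 column per library. Trimmomatic 0.33 and Bowtie2 2.3.4 are named in the submitters' processing notes. The table's name refers to an ITAG annotation release. The counting program, strandedness and the treatment of reads with several matches are not given in the sources used here.

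Differential expression was computed with edgeR 4.0.16 in R 4.3.3. TMM scaling, filterByExpr and 1 quasi-likelihood fit by treatment were applied to the 12 libraries. P-values were adjusted over all 20717 tested gene models by the Benjamini-Hochberg method within each comparison, and the threshold was 0.05. Each SE is approximate and equals the size of the log2 fold change over the root of its F statistic. Log2 CPM used a prior count of 2, and at these depths 3 counts equal between 0.0326 and 0.0668 CPM. Both floor and counting error cover counting alone. The labels do not say whether libraries came from separate plants, so p-values measure the spread between these libraries. With 3 against 3, the smallest two-sided p of an exact permutation test is 0.1, so none was made. All 12 within-group pairs differed by more than sampling noise (chi-square per degree of freedom from 51.5 to 248).

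The members and lists were chosen with earlier results of these data known. The 10 members were named throughout. The closest 3 gene models were named for LOXD and for MYC2, and the list genes were given as counts. The rule would have named up to 4 per list, but the files and the RefSeq table attach no names to them. The alternatives were DESeq2 size factors, unscaled total counts, no filter beyond 1 count, at least 10 counts in 3 libraries, the DESeq2 1.42.0 Wald test, a block for the replicate number, a fit to the compared groups alone, halved counts, and leaving out each of the 12 libraries. On simulated data with 200 changed gene models, 57% were called for salinity against control, with 7 false calls among the 20410 gene models of that step and 0 with the wrong sign. With 9817 gene models called for this comparison in the measured data, the adjusted threshold was stricter in the simulation. The 57% therefore does not apply to the measured data.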

Additional observations from a re-analysis of the deposited data

Results flagged for a closer look

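The response to heat was not the same in salt-treated and untreated leaves for MYC2, where the log2 effects differed by 1.86, and for AOS1, where they differed by 2.64, by the interaction test (adjusted p 0.0038 and 0.0117 in edgeR). For MYC2, heat against control gave -0.11 (SE 0.19) and the combination against salinity 1.75 (SE 0.20). For AOS1 these values were -0.26 (SE 0.33) and 2.37 (SE 0.39). Groups of 3 libraries are too small for a search for single outlying libraries.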

How the results depend on the processing

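Of 1390 member values recomputed under the alternatives, 62 that had been called missed the threshold, 33 passed it newly and 25 changed sign, none of which had been called. Of the 30 member calls, 19 were kept in every alternative fitted. Sign changes with unscaled total counts were AOS2 in salinity (-0.0090), AOS1 (0.044), AOC (0.15), COI1 (0.13) and MYC2 (0.19) in heat, OPR3 (0.13) and COI1 (0.26) in the combination, JAZ2 in the combination against salinity (0.24), and AOC (0.27) and JAZ2 (0.20) in heat against salinity. That setting moved the median of all tested gene models to 0.44 in heat, 0.32 in the combination and -0.08 in salinity. AOC in salinity was 0.024 with DESeq2 size factors, 0.021 in the Wald test and 0.0041 with the replicate number as a block. With 1 library left out, values that changed sign ranged from -0.13 to 0.13 for AOC and -0.082 to 0.32 for JAZ1 in salinity, from -0.25 to 0.068 for COI1 and -0.034 to 0.12 for MYC2 in the combination, and from -0.32 to 0.044 for JAZ1 and -0.17 to 0.48 for JAZ2 in the combination against heat. Member calls then ranged from 1 to 4 for the combination against control, 3 to 7 for the combination against salinity and 1 to 5 for the combination against heat. The cause was not tested.

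Over all tested gene models, interaction calls numbered 1852, or 1103 with total counts, 3356 in the Wald test and 806 to 2066 with 1 library left out. Same-numbered libraries share no more than a number in the labels, and their deviations correlated between -0.48 and 0.35 over 18 pairs. With the replicate block, member calls were 6 for salinity, 3 for heat, 2 for the combination against control and 6 for the combination against salinity, where AOC (adjusted p 0.0654) and JAZ1 (0.0735) were no longer called and COI1 (0.0497) was, while JAZ3 was not called in the combination (0.0699). The list of wound-response proteins then had 3 calls in heat in place of 5. Low counts limit AOS1, at 8 to 15 counts in salinity.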

Other observations

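Within the control group, 6 of the 10 members were lowest in control replicate 1 (AOS1, AOS2, AOC, JAZ1, JAZ2 and JAZ3), and 6 were highest in control replicate 3 (AOS1, AOS2, AOC, OPR3, JAZ2 and JAZ3). Of all tested gene models, 35.0% were lowest in the first of these libraries and 37.0% highest in the second. Within the heat group, 6 members were lowest in heat replicate 3 (LOXD, AOS1, OPR3, COI1, JAZ1 and JAZ3), beside 39.8% of all tested gene models, and 4 were highest in heat replicate 2 (LOXD, AOS1, OPR3 and JAZ3), beside 40.6%. These orders were noticed after the values had been seen and were not tested.

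LOXD varied very little among the control libraries. Its SD was 0.0511 CPM around a mean of 8.78, or 0.582% of the mean, whereas counting error alone at its mean count of 519 would give 4.39%. In the heat group the SD was 11.8 CPM around 25.6, or 46.2%, against a counting error of 2.15%. The biological coefficient of variation estimated by edgeR was 28.9% for LOXD, 31.0% for JAZ2 and 29.9% for AOS1, above the median of 22.5% over all tested gene models, and between 15.5% and 22.0% for the other 7 members.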
